A study of Mus musculus with 30 samples.

Results

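Interferon-stimulated genes were followed in mouse bone marrow-derived macrophages through the first hours of a response to lipopolysaccharide (LPS), a bacterial cell wall product. The set held 39 genes picked by name, of 24761 gene symbols in the table, and all 39 were found. For 18 of them the table had several transcript lines, and the line with the highest mean over all libraries was used. The cells were wild-type macrophages of the C57Bl/6 strain, grown from bone marrow with M-CSF, the growth factor of the macrophage lineage. Before LPS they received either the vehicle DMSO or 1 µM of metaproterenol hemisulfate (MPH), an agonist of the β2 adrenergic receptor, for 2 h. LPS, labelled as 100 ng/µL, then followed for 1 or 2 h, and the libraries of 0 h had the pretreatment without LPS. There were 7 DMSO cultures, named r1, r2, UKD and D3 to D6, and 3 MPH cultures, named M2, M3 and M4, each with 1 library per time, or 30 libraries in all. The labels do not say that the cultures came from separate animals, so p-values measure the spread between these cultures.

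Type I interferons are secreted proteins that bind a receptor on the same or neighbouring cells. The receptor's kinases then activate transcription factors, which enter the nucleus and bind a DNA element, the ISRE, near interferon-stimulated genes. LPS acts through the receptor TLR4, which starts both NF-kappa B signalling and, through the adaptor TRIF and the factor IRF3, the transcription of the interferon beta gene. Some interferon-stimulated genes can also be switched on by IRF3 itself, without interferon. The proteins they encode block steps of viral replication, attack membranes of intracellular microbes, sense foreign nucleic acids or adjust the signal.

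Approximate depth ran from 5.38 to 92.1 M reads (M, mega) in a library, the median being 41.3 M. Levels are in RPKM, which divides reads by the transcript's length and the library's depth, and a single read on a 2 kb transcript was worth 0.00543 to 0.093 RPKM. No value in the table was 0, so levels near that of 1 read are upper limits. Of 5 macrophage markers, Csf1r, the M-CSF receptor gene, was at 167 to 381 RPKM, Cd68 at 294 to 804 RPKM and Adgre1 at 70.9 to 229 RPKM, while Fcgr1 was at 2.66 to 39.2 RPKM and Mertk at 0.838 to 12.1 RPKM. All 6 T and NK cell markers, 4 of 4 dendritic cell markers and 4 of 4 stromal markers were below 1 RPKM in all 30 libraries, as were 3 of 4 B cell markers. S100a8 and S100a9, which neutrophils and monocytes express, reached 34.4 and 49.8 RPKM, while the neutrophil genes Ly6g and Retnlg stayed at or below 0.356 and 0.466 RPKM and the granule genes Mpo and Elane at or below 1.82 and 1.57 RPKM. The 1 h library labelled M4 stood apart: over 69 genes higher with MPH at 0 h, its mean log2 difference from DMSO was 0.02, against 1.35 in M2 and 1.23 in M3 at the same time.

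Each gene was placed by its response to LPS in the 7 DMSO cultures, tested with limma on log2(RPKM + 0.5) over 10212 genes and called at a Benjamini-Hochberg adjusted p below 0.05. A gene called higher at 1 h than at 0 h was termed early, and a gene called higher at 2 h but not at 1 h was termed late only. At 1 h, 7 of 39 genes were higher and 0 were lower, where 5.24% of all tested genes were higher and 15.0% lower. The 7 became 3 with no filter on low values, 4 without the covariate, 2 without D6 or without r1, 3 without r2 and 4 without D3 or without UKD. By the same test, 9 of 39 members had an unadjusted p under 0.05, where 3433 of 10212 tested genes did. At 2 h, 18 of 39 were higher and 0 lower, where 10.5% of all tested genes were higher and 43.6% lower. The late only class held 11 genes of the 39, where 5.70% of all tested genes were higher only at 2 h. The remaining 21 genes passed at neither time. Because the 3 libraries of a culture deviate together, a fit with the culture as a block was also made: it called 11 members higher (background 8.71%) and 1 lower (background 44.8%) at 1 h, and 30 higher (background 14.8%) and 0 lower (background 62.0%) at 2 h. By that fit the early class had 11 genes, the late only class 19 (background 7.12%) and the class of neither 9, and 23 genes kept their class. The values that follow for DMSO describe the classes they define.

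**Figure D1:**
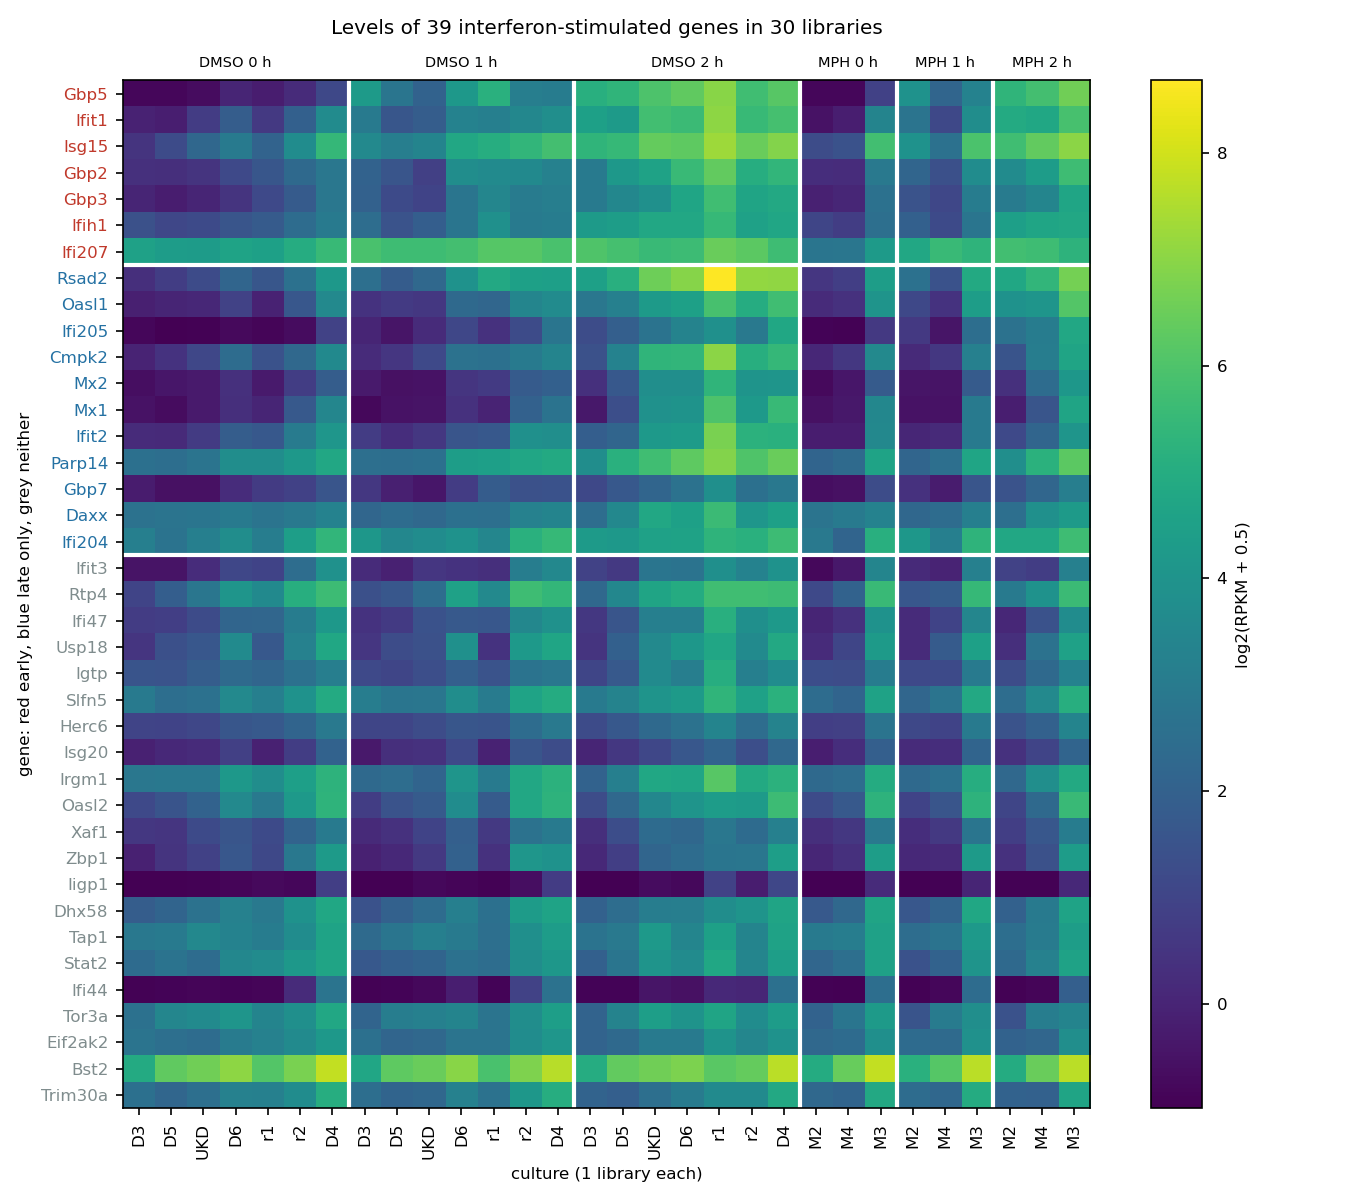
Levels of the 39 genes (rows, grouped into early, late only and neither) in the 30 libraries (columns, grouped by treatment and hours of LPS, 1 library per culture), as colour on a log2(RPKM + 0.5) scale. Cultures D4 and M3 were the brightest columns of their groups before LPS, Bst2 was high throughout, and Gbp5 went from the darkest cells before LPS to bright ones at 2 h.

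The promoters were searched for DNA features, which took no part in forming the classes. RefSeq promoters on build GRCm38.p6, which run from 250 bases before to 50 bases after the annotated start, were found for 29 of the 39 genes. The ISRE core was searched on both strands as GAAANNGAA, and it occurred in 19 of 29 genes, or 65.5%, against 8.56% of 32851 promoters in the table. It was present in 7 of 7 early genes, in 3 of 7 late only genes with a promoter (Gbp7, Ifi205 and Rsad2) and in 9 of 15 genes of neither class. Late only genes without a match were Cmpk2, Daxx, Ifit2 and Oasl1. The counts by class depend on the fit: with the culture block Rsad2, Ifi205 and Oasl1 were early. A difference between the classes was not tested. Another form is the STAT-binding GAS, searched as TTCNNNGAA, whose matches can overlap those of the ISRE core; it was in 7 of 29 genes, or 24.1%, against 8.30% of all promoters. An NF-kappa B form, GGGANTTTC, occurred in 1 of 29, Gbp5 (3.45%, against 1.11%). The cAMP response element TGACGTCA, a sequence bound downstream of β2 adrenergic signalling, was in 0 of 29, against 1.79% of all promoters. A match is a run of letters, not a measured binding site.

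The sequences below show the 3 early genes with the largest changes at 2 h, then Ifi207, the member called different between MPH and DMSO before LPS, a pair of neighbouring late only genes of which 1 has a match, a late only gene with matches on both sides of its start, and a gene that did not pass the test at any time. Each reads 5′ to 3′ on the gene's strand from the RefSeq promoter table, and capitals mark each match to the ISRE core on either strand. In Gbp5 (chr3:142496684-142496983, + strand) the match starts 164 bases before the start of transcription:
Gbp5: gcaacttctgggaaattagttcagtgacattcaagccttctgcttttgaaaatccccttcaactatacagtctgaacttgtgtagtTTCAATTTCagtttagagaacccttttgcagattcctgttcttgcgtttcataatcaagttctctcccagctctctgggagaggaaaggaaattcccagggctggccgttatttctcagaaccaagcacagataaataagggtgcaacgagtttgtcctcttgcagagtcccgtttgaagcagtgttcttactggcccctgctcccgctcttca
Isg15 (chr4:156200769-156201068, - strand) has 3 overlapping matches, which begin 78, 72 and 66 bases upstream:
Isg15: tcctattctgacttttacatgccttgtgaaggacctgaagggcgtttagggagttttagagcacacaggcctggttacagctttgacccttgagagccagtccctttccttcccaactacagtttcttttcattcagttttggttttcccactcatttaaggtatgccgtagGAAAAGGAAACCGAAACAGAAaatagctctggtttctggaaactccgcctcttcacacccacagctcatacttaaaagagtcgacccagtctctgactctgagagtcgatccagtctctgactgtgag
Ifit1 (chr19:34640639-34640938, + strand) also has 3, at 109, 103 and 84 bases upstream:
Ifit1: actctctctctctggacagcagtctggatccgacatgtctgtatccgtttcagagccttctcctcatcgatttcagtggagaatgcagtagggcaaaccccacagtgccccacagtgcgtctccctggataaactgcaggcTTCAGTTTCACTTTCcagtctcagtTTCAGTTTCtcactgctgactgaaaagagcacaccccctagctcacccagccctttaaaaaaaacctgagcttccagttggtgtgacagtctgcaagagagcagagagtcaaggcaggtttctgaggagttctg
Ifi207 (chr1:173741760-173742059, - strand) has 1 match, at 41 bases:
Ifi207: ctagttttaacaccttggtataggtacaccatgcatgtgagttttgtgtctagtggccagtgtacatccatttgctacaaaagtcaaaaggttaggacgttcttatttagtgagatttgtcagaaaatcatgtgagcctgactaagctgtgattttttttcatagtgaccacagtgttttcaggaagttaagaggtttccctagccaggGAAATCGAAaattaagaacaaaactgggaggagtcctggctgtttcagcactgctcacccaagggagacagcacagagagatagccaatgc
Rsad2 (chr12:26456403-26456702, - strand) has 1 match, at 119 bases:
Rsad2: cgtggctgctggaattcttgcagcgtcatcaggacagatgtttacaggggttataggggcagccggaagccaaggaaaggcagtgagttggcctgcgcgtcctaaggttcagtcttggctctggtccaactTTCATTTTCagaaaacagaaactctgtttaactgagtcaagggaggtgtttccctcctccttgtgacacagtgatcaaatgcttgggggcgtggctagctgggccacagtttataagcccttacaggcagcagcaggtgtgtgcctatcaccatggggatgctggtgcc
Its neighbour Cmpk2 (chr12:26468965-26469264, + strand), read away from it on the other strand, has 0 matches:
Cmpk2: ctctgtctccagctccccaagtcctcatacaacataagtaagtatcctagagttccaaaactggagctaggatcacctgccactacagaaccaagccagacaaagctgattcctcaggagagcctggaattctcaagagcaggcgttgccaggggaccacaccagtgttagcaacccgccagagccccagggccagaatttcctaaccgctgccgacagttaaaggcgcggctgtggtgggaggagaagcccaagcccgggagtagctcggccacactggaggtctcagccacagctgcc
Ifi205 (chr1:174031706-174032005, - strand) has 2 matches, 1 at 134 bases upstream and 1 at 25 bases after the start:
Ifi205: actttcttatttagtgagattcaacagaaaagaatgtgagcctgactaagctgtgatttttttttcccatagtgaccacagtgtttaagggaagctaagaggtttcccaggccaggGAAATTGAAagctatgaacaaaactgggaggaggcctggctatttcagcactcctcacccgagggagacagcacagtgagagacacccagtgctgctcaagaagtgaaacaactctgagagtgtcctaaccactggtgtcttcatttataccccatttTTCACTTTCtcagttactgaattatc
Bst2 (chr8:71537423-71537722, - strand) has 2 overlapping matches, at 130 and 124 bases:
Bst2: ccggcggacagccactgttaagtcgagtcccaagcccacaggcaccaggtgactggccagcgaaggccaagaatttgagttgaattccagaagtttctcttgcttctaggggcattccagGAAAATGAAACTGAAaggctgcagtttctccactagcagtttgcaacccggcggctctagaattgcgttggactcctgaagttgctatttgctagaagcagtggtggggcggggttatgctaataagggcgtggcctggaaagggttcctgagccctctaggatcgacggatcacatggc
Of the 29 genes, 10 had at least 2 matches, against 0.624% of all promoters.

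The early class began with 3 guanylate-binding proteins, GTPases that coat and break the membranes of intracellular microbes. Gbp5, which also promotes inflammasome assembly, was at 0.0706, 0.370 and 1.65 RPKM (lowest, median and highest of 7 DMSO cultures) before LPS. At 1 h it was at 3.67, 8.28 and 35.2 RPKM, and at 2 h at 34.0, 63.4 and 123 RPKM. Every culture at 1 h lay above every culture at 0 h, and the rise of 3.69 on the log2 scale (SE 0.38, limma adjusted p = 6.35e-07) was the largest of the 39 at that time. By 2 h it had reached 6.11 (SE 0.38, limma adjusted p = 2.31e-10). Gbp2 went from 0.750, 1.71 and 6.63 RPKM to 1.30, 9.15 and 12.9 RPKM at 1 h and 7.44, 32.5 and 81.5 RPKM at 2 h. The 0 h and 1 h groups of Gbp2 overlapped, but all 7 cultures were higher at 1 h than at 0 h, by a mean of 1.38 (SE 0.46, limma adjusted p = 0.0400). Gbp3 rose by 1.51 at 1 h (SE 0.43, limma adjusted p = 0.0170) and by 3.46 at 2 h (SE 0.43). Its 2 h cultures, at 7.35, 24.6 and 51.7 RPKM, all lay above the 0 h cultures, at 0.359, 0.893 and 6.69 RPKM. These genes are close in sequence, and how reads mapping to several places were treated is not given in the sources used here, so the split between family members is uncertain.

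Ifit1 and Isg15 encode effectors: IFIT1 binds viral RNA that lacks the host's cap methylation, and ISG15 is a ubiquitin-like protein that is joined to other proteins. Ifit1 was at 0.390, 1.17 and 12.4 RPKM at 0 h, at 2.53, 8.64 and 13.5 RPKM at 1 h and at 19.0, 47.6 and 132 RPKM at 2 h. Each 2 h culture was above each culture of both earlier times, and the rise was 1.64 at 1 h (SE 0.53, limma adjusted p = 0.0325) and 4.26 at 2 h (SE 0.53, limma adjusted p = 2.0e-06). Isg15 stood at 0.890, 4.28 and 43.7 RPKM, then 8.37, 27.3 and 54.8 RPKM, then 40.5, 84.2 and 152 RPKM. Its times overlapped, because D4 before LPS (43.7 RPKM) was already above D3 at 2 h (40.5 RPKM). Within each of the 7 cultures it was higher at 1 h, by a mean of 1.85 (SE 0.59, limma adjusted p = 0.0319), and it reached 3.71 at 2 h (SE 0.59).

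The other early genes encode sensors. Ifih1, the gene of the long double-stranded RNA sensor MDA5, was at 1.59, 2.44 and 7.39 RPKM, then 2.33, 6.34 and 14.3 RPKM, then 19.0, 26.2 and 44.4 RPKM. Most of its rise came in the second hour: the log2 change was 0.88 at 1 h (SE 0.29, limma adjusted p = 0.0385) and 2.96 at 2 h (SE 0.29, limma adjusted p = 1.22e-07). Ifi207, of the PYHIN family that includes sensors of DNA, was at 19.5, 22.6 and 46.0 RPKM, then 50.9, 59.0 and 72.3 RPKM, then 46.8, 55.7 and 88.7 RPKM. It had the opposite course, with a rise of 1.20 at 1 h (SE 0.15, limma adjusted p = 6.53e-06) and 1.22 at 2 h (SE 0.15), and a difference of 0.02 between 2 h and 1 h (limma adjusted p = 0.957). Of the 7 early genes, the other 6 were called higher again at 2 h than at 1 h. Of all 39 genes, 17 were higher in that comparison and 0 lower, where 6.59% and 15.4% of all tested genes were, and 31 and 0 with the culture block (backgrounds 13.8% and 35.4%). Gbp2 was the member nearest the 1 h threshold from inside, and Rsad2 (adjusted p = 0.0519) the nearest from outside.

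Among the late only genes, Rsad2 and Cmpk2 are neighbours on chromosome 12; RSAD2, or viperin, makes a nucleotide analogue that ends viral RNA chains, and CMPK2 supplies its precursor. Rsad2 was at 0.744, 2.56 and 17.5 RPKM, then 3.08, 15.0 and 28.1 RPKM, then 22.5, 121 and 410 RPKM. All 7 cultures were higher at 1 h than at 0 h, by a mean of 1.66 that missed the threshold (SE 0.59) and passed it with the culture block (limma adjusted p = 6.95e-04). Its 2 h cultures all lay above its 0 h cultures, a rise of 4.73 (SE 0.59, limma adjusted p = 2.11e-06). Cmpk2 was at 0.482, 2.23 and 11.5 RPKM, then 0.657, 5.43 and 9.85 RPKM, then 2.17, 40.4 and 126 RPKM. Its 1 h difference was 0.32 (SE 0.70, limma adjusted p = 0.782; with the culture block 0.448), and at 2 h it rose by 3.11 (SE 0.70, limma adjusted p = 0.00103), with D3 and D5 still within the range of 0 h.

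Oasl1 and Ifit2 followed. OASL1 is a relative of the oligoadenylate synthetases that holds back translation of the Irf7 messenger RNA, and IFIT2 is an RNA-binding partner of IFIT1. Oasl1 was at 0.423, 0.574 and 11.3 RPKM, then 0.841, 4.09 and 12.4 RPKM, then 6.79, 22.4 and 57.2 RPKM. It rose by 3.63 at 2 h (SE 0.63, limma adjusted p = 8.42e-05), and its 1 h value of 1.03 (SE 0.63) passed only with the culture block (limma adjusted p = 0.00998). Ifit2 was at 0.632, 2.71 and 16.8 RPKM, then 0.711, 2.44 and 13.9 RPKM, then 3.27, 19.7 and 106 RPKM. At 1 h only 3 of 7 cultures were above their own 0 h level, and at 2 h all 7 were (log2 rise 2.57, SE 0.70, limma adjusted p = 0.00465). Ifit1 and Ifit2 therefore fell into different classes although both passed at 2 h. The difference between their courses was not tested.

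Mx1 and Mx2 encode dynamin-like GTPases that trap viral ribonucleoproteins, although the Mx1 gene of many laboratory strains carries a deletion. Mx1 was at 0.139, 0.503 and 10.3 RPKM, then 0.0851, 0.485 and 5.98 RPKM, then 0.269, 15.1 and 63.0 RPKM. The 0 h and 2 h groups overlapped, with D3 the lowest at 2 h, but 7 of 7 cultures were higher at 2 h than at 0 h, by a mean of 2.92 (SE 0.86, limma adjusted p = 0.00761). Mx2 was at 0.143, 0.319 and 3.17 RPKM, then 0.191, 0.923 and 3.49 RPKM, then 0.789, 13.5 and 39.7 RPKM, a rise of 3.10 at 2 h (SE 0.60, limma adjusted p = 2.59e-04).

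Ifi205, a PYHIN gene like Ifi207, was at 0.0120, 0.0642 and 1.39 RPKM, then 0.234, 0.826 and 6.38 RPKM, then 1.87, 7.16 and 27.0 RPKM. It was higher in 7 of 7 cultures at 1 h (1.34, SE 0.51, limma adjusted p = 0.0710; with the culture block 2.55e-04) and its 2 h cultures all lay above those of 0 h (3.56, SE 0.51). Ifi204, the third PYHIN gene of the set, rose by 1.14 at 2 h (SE 0.39, limma adjusted p = 0.0193) and was the member just inside the 2 h threshold, with Herc6 just outside (0.82, limma adjusted p = 0.0644). The 1 h rise of Ifi204, 0.53, passed only with the culture block (limma adjusted p = 0.0208). Gbp7 was at 0.181, 0.672 and 2.42 RPKM, then 0.252, 1.16 and 3.01 RPKM, then 1.64, 5.46 and 13.9 RPKM, and rose by 2.13 (SE 0.34, limma adjusted p = 3.66e-05). Parp14, which encodes an ADP-ribosyl transferase, was at 5.13, 12.9 and 27.5 RPKM, then 5.12, 20.6 and 29.3 RPKM, then 13.0, 64.7 and 119 RPKM. It rose by 2.29 (SE 0.46, limma adjusted p = 4.03e-04) and was higher at 2 h than at 0 h in 7 of 7 cultures. Daxx, a histone H3.3 chaperone gene, was at 5.83, 6.30 and 9.40 RPKM, then 4.16, 5.36 and 9.82 RPKM, then 5.06, 22.1 and 48.6 RPKM. Its rise of 1.35 (SE 0.32, limma adjusted p = 0.00161) held in 6 of 7 cultures, D3 being the exception. Of the 11 late only genes 10, all except Ifi204, were also called higher at 2 h than at 1 h.

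**Figure D2:**
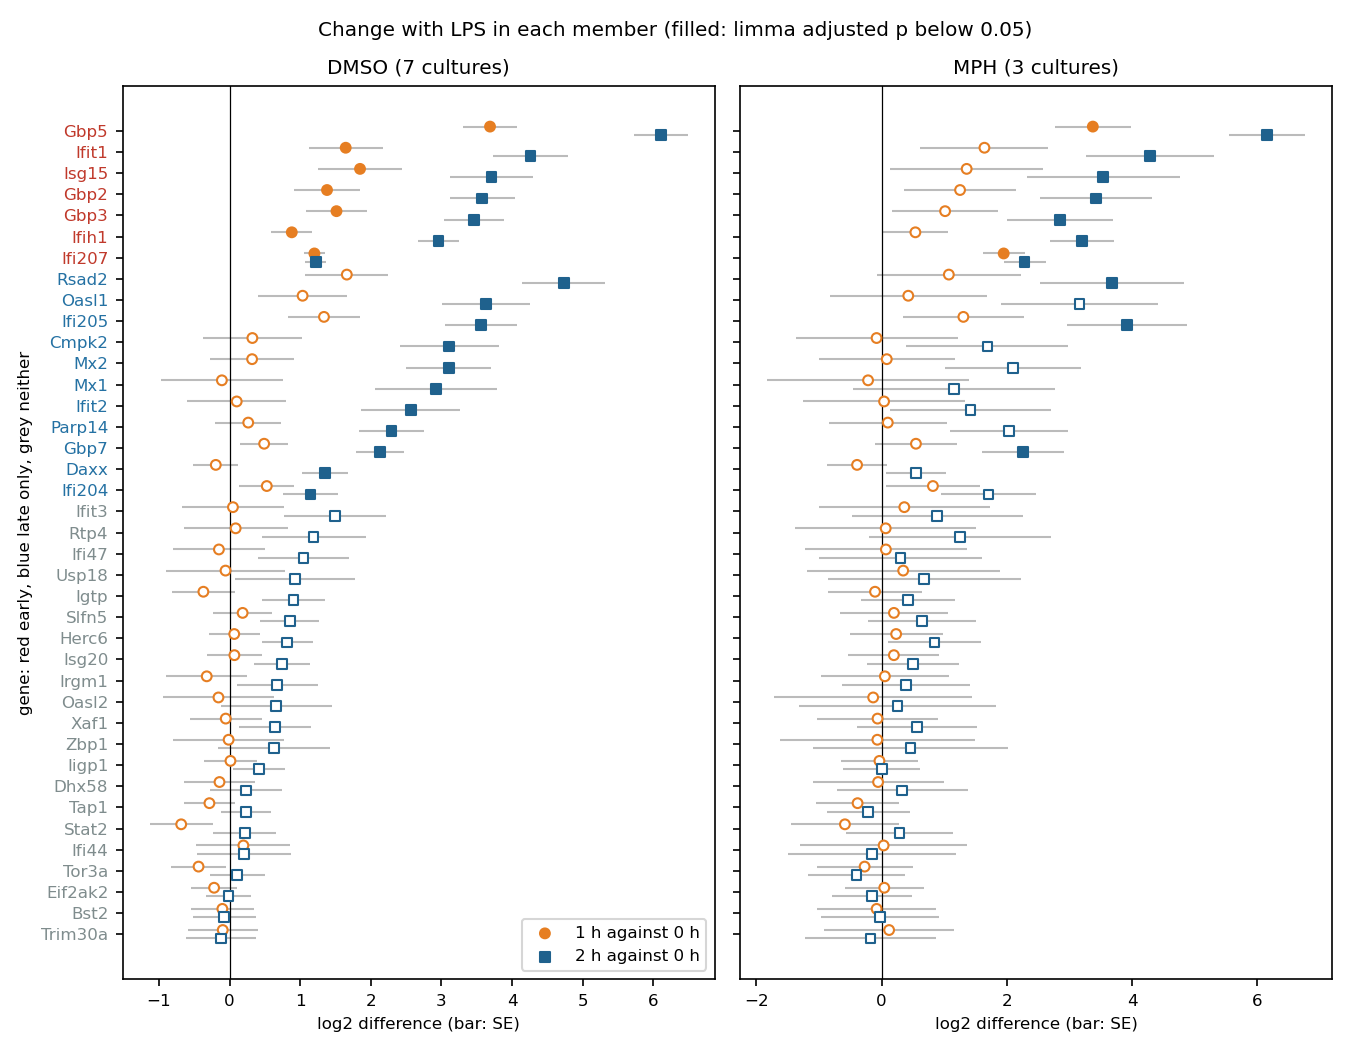
Log2 difference from 0 h at 1 h (circles) and 2 h (squares) of LPS for each gene in 7 DMSO cultures (left) and 3 MPH cultures (right), with the SE of the fit as bars and filled points where the limma adjusted p was below 0.05. Gbp5 lay farthest from 0 in both panels (6.11 and 6.16 at 2 h). The points of the lower rows were open and had wide bars, with values of up to 1.49 (Ifit3) at 2 h in DMSO.

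Among the 21 genes of neither class, Stat2, which encodes a transcription factor of the interferon response, was at 4.79, 10.9 and 25.1 RPKM, then 2.72, 5.06 and 17.2 RPKM, then 3.46, 12.3 and 26.8 RPKM. It was lower at 1 h than at 0 h in 7 of 7 cultures, a value of -0.69 (SE 0.45, limma adjusted p = 0.294) that was called with the culture block (limma adjusted p = 0.0257). At 2 h it was back within 0.21 of its 0 h level on the log2 scale. Usp18, the protease that removes ISG15 and dampens the interferon receptor, had a value of 0.93 at 2 h (SE 0.84; adjusted p = 0.0443 in limma with the culture block). The nucleic acid sensors Dhx58 (0.23), Zbp1 (0.63) and Eif2ak2 (-0.01), the last being the kinase PKR, did not pass at 2 h.

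The immunity-related GTPases Irgm1, Igtp, Iigp1 and Ifi47, which act on pathogen vacuoles, had 2 h values from 0.42 to 1.05. Igtp was the only gene of neither class called higher at 2 h than at 1 h (1.28, limma adjusted p = 0.0489). With the culture block 12 of the 21 genes passed at 2 h but not at 1 h: Ifit3, Isg20, Oasl2, Usp18, Rtp4, Xaf1, Herc6, Ifi47, Igtp, Iigp1, Slfn5 and Zbp1. Of these, Ifit3 had the largest value (1.49, SE 0.72; with the block SE 0.32, limma adjusted p = 4.32e-04). Bst2, or tetherin, which holds budding virions on the cell, had the highest level before LPS, at 30.1, 96.6 and 219 RPKM, then 25.9, 87.4 and 198 RPKM, then 31.5, 83.1 and 205 RPKM. Its differences from 0 h were -0.10 and -0.07. The 9 genes called higher at neither time with the block either were Stat2 (called lower at 1 h), Dhx58, Ifi44, Irgm1, Trim30a, Eif2ak2, Tap1, Bst2 and Tor3a. Ifi44 and Iigp1 reached 1 RPKM in only 7 and 4 of the 30 libraries, so small changes in them were not detectable at this depth.

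The deposited scale affects how these changes read, because most genes moved down a little relative to the total. The median log2 difference over all tested genes was -0.15 at 1 h and -0.25 at 2 h, and the medians over the 39 genes were 0.07 and 1.14. Scaling by median of ratios moved the all-gene median by 0.13 and 0.21, and the split of all calls from 535 higher and 1536 lower to 669 and 536 at 1 h, and from 1075 higher and 4454 lower to 1701 and 2141 at 2 h. At 2 h against 1 h it went from 673 higher and 1574 lower to 922 and 1065. With MPH the splits went from 194 higher and 121 lower to 216 and 78 at 1 h, from 611 and 1510 to 797 and 635 at 2 h, and from 139 and 193 to 213 and 108 at 2 h against 1 h. With this scaling 7 members were higher at 1 h and 20 at 2 h (Herc6 and Slfn5 were added), and the number of members with a value above 0 at 2 h went from 36 to 39.

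The level of these genes before LPS differed between cultures far more than that of most genes. The SD of log2(RPKM + 0.5) over the 7 DMSO cultures had a median of 0.93 over the 39 genes at 0 h, 1.06 at 1 h and 1.00 at 2 h, where all tested genes had medians of 0.27, 0.31 and 0.27. At 0 h, 37 of 39 genes were above the 90th percentile of all tested genes, at 1 h 36 and at 2 h 36. Daxx (SD 0.22) and Ifi207 (SD 0.43) varied least before LPS, and Rtp4 (SD 1.66), a chaperone of receptors, and Isg15 (SD 1.65) varied most. Bulk RNA cannot tell fewer cells expressing such a gene from less RNA per cell.

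The spread took different courses in the classes. In the early class the median SD was 1.00 at 0 h and 0.69 at 2 h, and 6 of 7 genes, all except Gbp2, had a smaller SD at 2 h than at 0 h. In the late only class it was 0.93 at 0 h and 1.18 at 2 h, and 2 of 11 genes had a smaller SD. For the genes of neither class the medians were 0.89 and 0.98, with a smaller SD in 7 of 21, and among all tested genes 5394 of 10212 had a smaller SD. The added 0.5 RPKM narrows the SD where levels are near or below it. In Ifi205 the highest culture was 116-fold above the lowest at 0 h and 14.4-fold at 2 h, although the SD rose from 0.67 to 1.18. In Mx1 both measures rose, from 74.2-fold and an SD of 1.49 at 0 h. Gbp5 had an SD of 0.69 at 0 h, 1.06 at 1 h and 0.62 at 2 h. Its highest culture was 23.4-fold above its lowest at 0 h, 9.60-fold at 1 h and 3.63-fold at 2 h. The largest spread at 2 h was that of Mx1 (SD 2.27), where r1 was 234-fold above D3. The classes come from tests on these same libraries that weigh a change against the spread. A gene with a small spread is therefore called more readily, and the comparison of spreads between classes is only a description.

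The 3 MPH cultures took no part in forming the classes, but their spread is not independent of the cultures that did. Deviations of M2, M3 and M4 correlated with those of D3, D4 and D5 at 0.746 to 0.908. With MPH the early class had the lowest median SD at 2 h. It went from a median SD of 1.51 at 0 h to 0.63 at 2 h, the late only class from 1.55 to 1.21 and the genes of neither class from 1.44 to 1.31. The late only median thus fell with MPH, where it rose in DMSO. Ifih1 was at 1.57, 5.34 and 1.20 RPKM in M2, M3 and M4 before LPS and at 21.5, 27.3 and 25.5 RPKM at 2 h. The 3 cultures thus came to within an SD of 0.17 on the log2 scale. Mx1, by contrast, was at 0.378, 25.1 and 2.44 RPKM in them at 2 h, an SD of 2.46.

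**Figure D3:**
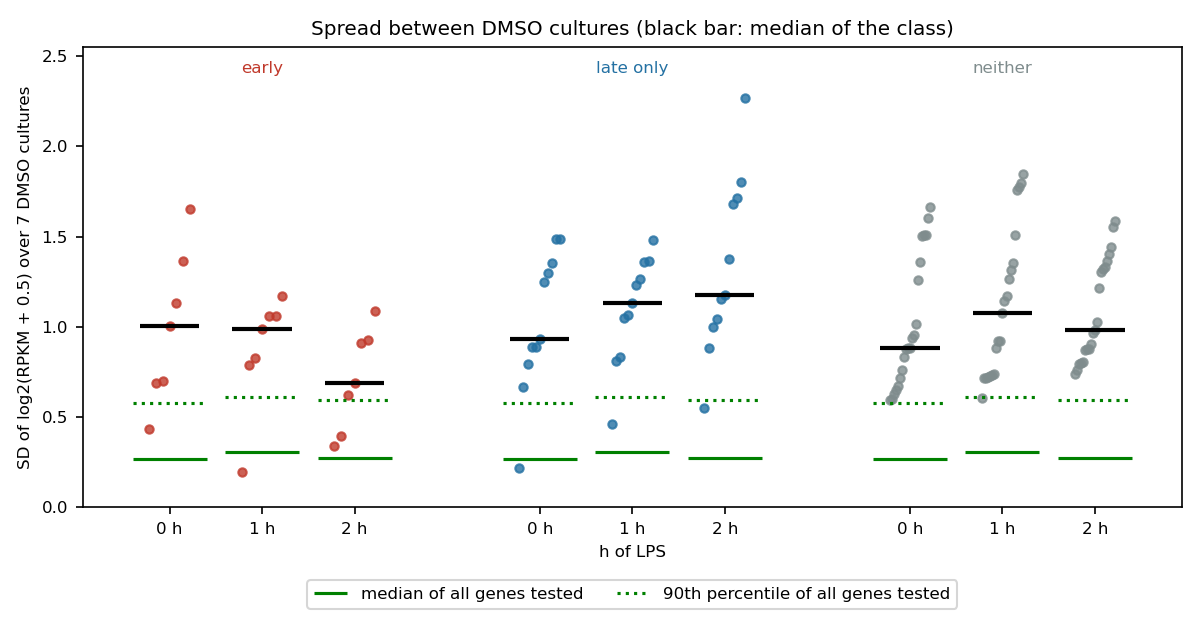
SD of log2(RPKM + 0.5) over 7 DMSO cultures for each gene (points) at 0, 1 and 2 h of LPS, by class, with the class median as a black bar and the median and 90th percentile of all tested genes as green lines. The early median was 1.00 at 0 h and 0.69 at 2 h and the late only median 0.93 and 1.18, and most points lay above the 90th percentile line.

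The spread followed particular cultures. Before LPS, D4 was the highest of the 7 DMSO cultures for 39 of 39 genes, and M3 was the highest of the 3 MPH cultures for 39 of 39, where D4 was highest for 20.6% and M3 for 43.3% of all tested genes. D3 was the lowest for 20 of 39 and M2 for 30 of 39. The median level of the 39 genes at 0 h was 16.8 RPKM in D4 and 13.9 RPKM in M3, and 0.965 to 6.93 RPKM in the other 8 cultures. Both D4 and M3 lay above all other 8 cultures for 38 of 39 genes at 0 h, for 25 at 1 h and for 10 at 2 h, where 12.5%, 10.3% and 10.1% of all tested genes did. At 2 h, r1 was the highest DMSO culture for 25 genes and D4 for 14, and D3 was the lowest for 34.

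The cultures with high levels before LPS changed less in some early genes. Ifit1 was at 12.4 RPKM in D4 and 9.85 RPKM in M3 at 0 h, and its log2 changes by 1 h were 0.12 and 0.37. In D3, with 0.471 RPKM before LPS, and M2, with 0.201 RPKM, they were 3.02 and 3.25. Each change contains the 0 h level it is set against, so the relation was not tested. Without D4, 9 members were called higher at 1 h, 23 at 2 h and 21 at 2 h against 1 h, in place of 7, 18 and 17. In D3 to D6 alone there were 2 at 1 h, 10 at 2 h and 2 at 2 h against 1 h.

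Genes that mark the sex chromosomes separated the same cultures, and were looked at after the levels were seen. Xist, the RNA that silences an X chromosome in female cells, was at 15.6 to 21.5 RPKM in the 6 libraries of D4 and M3 and at or below 0.0104 RPKM in the other 24. The Y-linked gene Ddx3y was at or below 0.0356 RPKM in those 6 and at 4.69 to 12.3 RPKM in the other 24. The labels give no sex, and its part in the levels cannot be told apart from that of the cultures. The macrophage markers summed to 791 to 879 RPKM in the libraries of D4 and M3 and 848 to 1330 RPKM in the others, but the genes of the list went different ways. Cd68 was at 294 to 333 RPKM in D4 and M3 and at 555 to 804 RPKM in the others, Adgre1 at 203 to 229 and 70.9 to 209 RPKM, and Fcgr1 at 21.4 to 39.2 and 2.66 to 21.7 RPKM. Csf1r, at 251 to 297 and 167 to 381 RPKM, and Mertk, at 1.72 to 6.15 and 0.838 to 12.1 RPKM, did not separate them. Of the neutrophil markers, which summed to 24.3 to 56.1 RPKM in D4 and M3 and 4.36 to 75.4 RPKM in the others, Mpo was at 1.06 to 1.82 and 0.0463 to 0.767 RPKM and Elane at 0.977 to 1.57 and 0.0118 to 0.666 RPKM. Both were thus higher in all 6 libraries of D4 and M3 than in the other 24. The rest of the list did not separate them. S100a8 was at 10.6 to 28.7 and 1.78 to 34.4 RPKM and S100a9 at 11.6 to 24.7 and 1.59 to 49.8 RPKM. Ly6g was at 0.038 to 0.356 and 0.0125 to 0.214 RPKM and Retnlg at 0.0542 to 0.41 and 0.0178 to 0.466 RPKM. Of the 4 plasmacytoid dendritic cell markers other than Bst2, Siglech, Ly6d and Ccr9 were below 1 RPKM in all libraries, and the 4 summed to 3.78 to 4.81 RPKM in D4 and M3 and 2.71 to 6.55 RPKM in the others. The part of these marker lists in the levels was not tested.

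**Figure D4:**
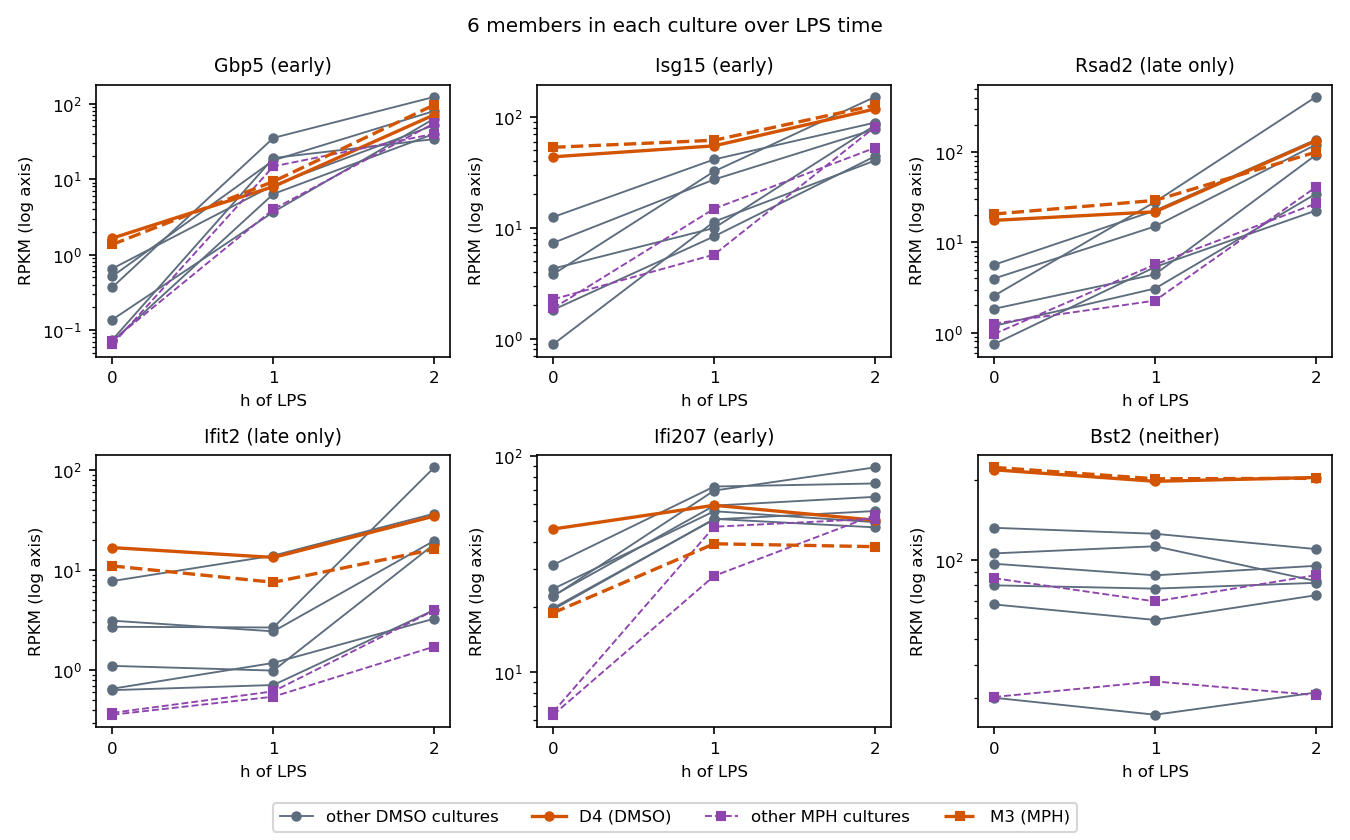
RPKM on a log axis against hours of LPS for 6 of the genes, with 1 line per culture (circles and solid lines DMSO, squares and dashed lines MPH) and D4 and M3 in orange. In Gbp5 and Isg15 the lines drew together by 2 h, in Ifit2 and Bst2 they stayed spread, and D4 and M3 were on top before LPS except for M3 in Ifi207.

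The genes that make and carry the interferon signal were followed as a list of 30, of which 27 were tested. In DMSO, 7 were higher and 1 lower at 1 h (backgrounds 5.24% and 15.0%), and 14 higher and 4 lower at 2 h (10.5% and 43.6%). With the culture block these counts were 10 and 5 (8.71% and 44.8%), and 16 and 4 (14.8% and 62.0%). Ifnb1, which encodes interferon beta, was at most 0.0697 RPKM in the DMSO cultures before LPS. At 1 h it was at 0.935, 4.34 and 16.8 RPKM and at 2 h at 2.84, 3.98 and 18.6 RPKM (lowest, median and highest), rises of 3.31 and 3.60 (SE 0.39, limma adjusted p = 3.58e-06 and 3.97e-07). Every culture at 1 h was above every culture at 0 h. Irf1, a transcription factor gene that LPS and interferons raise, rose from 4.17, 8.17 and 13.9 RPKM to 66.3, 156 and 189 RPKM at 1 h, a log2 change of 4.07 (SE 0.31). Jak2, a receptor kinase gene, rose by 2.49 at 2 h, and the feedback inhibitor genes Socs1 and Socs3 by 2.84 and 6.85. Irf8 (-1.28), Tlr4 (-0.995), Mavs (-1.07) and Ptpn6 (-0.34) fell by 2 h.

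Ifnb1 and the interferon-stimulated genes ranked the cultures alike in some cases and not in others. At 1 h Ifnb1 was highest in r1, at 16.8 RPKM, followed by M2 with 8.50 RPKM, and r1 was the highest DMSO culture for 25 of the 39 genes at 2 h. At 2 h Ifnb1 was at 14.7 RPKM in D3, 18.6 in r2 and 18.4 in M2, and at 3.26 RPKM in D4 and 0.924 in M3. D3 and M2, which had the lowest levels of most members at 2 h, were thus among the highest in Ifnb1. Irf7, the interferon regulatory factor that is itself interferon-stimulated, was before LPS at 66.2 RPKM in D4 and 70.3 RPKM in M3, and between 1.20 and 13.6 RPKM in the other 8 cultures. It did not pass the test for LPS at 1 or 2 h in DMSO; with the culture block it passed at 2 h (0.86, SE 0.33, limma adjusted p = 0.0243).

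A further list of 34 interferon-stimulated genes outside the set, 31 of them tested, gave 2 higher and 1 lower at 1 h (backgrounds 5.24% and 15.0%) and 8 higher and 1 lower at 2 h (10.5% and 43.6%). With the culture block these were 3 and 1, and 14 and 2 (backgrounds as above). Cxcl10, a chemokine that draws T cells, was at 0.846, 1.51 and 15.0 RPKM at 0 h, at 186, 276 and 758 RPKM at 1 h and at 521, 1049 and 2346 RPKM at 2 h. No time overlapped the 0 h values, and the rise was 6.77 at 1 h and 8.50 at 2 h (SE 0.46), larger than that of any member. Slfn2, a regulator of quiescence in immune cells, rose by 2.12 and 2.60 (SE 0.16), and Ifi203 by 2.37 and Dtx3l by 1.71 at 2 h. Ifi30, which encodes a lysosomal thiol reductase, fell by 0.22 at 1 h and by 0.30 at 2 h. Before LPS, D4 was the highest DMSO culture for 30 of these 31 genes and M3 the highest MPH culture for 29.

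Under MPH the responses to LPS are not a separate check of the classes. The MPH libraries had not formed them, but the fit took its spread also from D3 to D6, which had. Deviations of M2, M3 and M4 also followed those of D3, D4 and D5. In a fit of all MPH libraries with those of D3 to D6, over 10239 genes, LPS at 2 h raised 7 of 7 early genes, 3 of 11 late only genes (Rsad2, Gbp7 and Ifi205) and 0 of 21 genes of neither class, where 5.97% of all tested genes were higher. The median 2 h change was 3.43 in the early class, 2.04 in the late only class and 0.33 in the rest. With the culture block it raised 7, 9 and 7, in all 23 of 39 higher (background 11.7%) and 0 lower (background 42.8%). At 1 h only Gbp5 and Ifi207 passed (background 1.89%), and with the culture block 4 were higher (background 4.66%) and 2 were lower (background 7.41%). At 2 h against 1 h, Gbp5 and Ifih1 passed (background 1.36%), and with the culture block 21 were higher (background 8.52%) and 1 lower (background 24.4%). Without the block no member was called lower at 1 h (background 1.18%), at 2 h (background 14.7%) or at 2 h against 1 h (background 1.88%). At 2 h, 4 members were higher without M2 and 3 without M4, in place of 10. At 1 h 1 was higher without M2 or without M4, and at 2 h against 1 h 1 without M3 and 0 without M4.

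Gbp5 was at 0.0646, 1.36 and 0.0723 RPKM in M2, M3 and M4 before LPS, at 14.7, 9.29 and 3.98 RPKM at 1 h and at 39.9, 96.6 and 55.2 RPKM at 2 h. The 3 times did not overlap, and the changes were 3.37 at 1 h (SE 0.61, limma adjusted p = 0.00223) and 6.16 at 2 h (SE 0.61, limma adjusted p = 1.27e-06). Ifit1 was at 0.201, 9.85 and 0.382 RPKM, then 6.16, 12.9 and 1.68 RPKM, then 29.6, 57.8 and 26.9 RPKM, a rise of 4.29 at 2 h (SE 1.02, limma adjusted p = 0.00651). M3 had the highest Ifit1 at every time. Rsad2 was at 0.965, 20.6 and 1.26 RPKM at 0 h and at 27.0, 100.2 and 41.0 RPKM at 2 h, a rise of 3.68 (SE 1.15, limma adjusted p = 0.0311). Mx1 was higher at 2 h than at 0 h in 3 of 3 MPH cultures and did not pass (1.16, SE 1.61; with the culture block, limma adjusted p = 0.0616). Without M4 the number called at 2 h was 3 in place of 10, and without D4 and M3 it was 12.

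MPH against DMSO was compared between M2 to M4 and D3 to D6 at each time. Before LPS, 1 of 39 genes was lower and 0 were higher, where 0.195% of all tested genes were lower and 0.674% higher. This was Ifi207, at 6.36, 18.8 and 6.55 RPKM in M2, M3 and M4 and at 22.6, 46.0, 19.8 and 24.3 RPKM in D3, D4, D5 and D6. All 3 MPH cultures lay below all 4 DMSO cultures (-1.47, SE 0.31, limma adjusted p = 0.0307), as they did for 3.98% of all tested genes. They lay above in 0 members, against 3.56% of all tested genes. With all genes tested and no filter on low values the adjusted p was 0.0635, and the call was lost when any culture except M3 was left out. Over all alternatives it ran from 0.00304 to 0.202. At 1 h the MPH cultures were again all below, at 27.9, 39.3 and 47.1 RPKM against 50.9 to 59.2 RPKM (-0.58, SE 0.31, limma adjusted p = 1). At 2 h the groups overlapped (-0.22, SE 0.31). LPS raised Ifi207 by 1.95 at 1 h and 2.28 at 2 h with MPH, and the response at 2 h was 1.26 larger than with DMSO (SE 0.44, unadjusted p = 0.0112, limma adjusted p = 0.947), which did not pass.

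At 1 h and at 2 h limma called 0 of 39 genes different between MPH and DMSO, and 0 had an unadjusted p under 0.05 at either time. Of 10239 tested genes, 327 at 1 h and 930 at 2 h had such a p. All tested genes gave 0 calls at 1 h, and 0.479% higher and 0.391% lower at 2 h. Apart from Ifi207 at 0 h and 1 h, no member had groups that did not overlap. Among all tested genes the MPH cultures lay wholly above in 0.918% at 1 h and 4.29% at 2 h, and wholly below in 0.566% and 5.22%. The test of a different LPS response gave 0 calls among the members at 1 h and at 2 h, and 0 with the culture block. Without the block 0 and 1 members had an unadjusted p under 0.05, where 83 and 318 of 10239 tested genes did. All tested genes gave 0 calls at 1 h, and at 2 h 0.0195% with a larger and 0.0879% with a smaller response. With the culture block these shares were 0.0488% and 0.146% at 1 h and 0.762% and 0.664% at 2 h. These comparisons were imprecise for this set: the median SE of the members was 0.90, against 0.22 for all tested genes. Values from -0.93 (Ifit2, SE 1.21) to 0.68 (Ifi205, SE 0.90) at 2 h did not pass in this fit, which does not pair cultures because the labels do not. Deviations of M2 with D3, M3 with D4 and M4 with D5 correlated at 0.746 to 0.908 over the 3 times. At 2 h Ifit2 was at 1.72, 16.1 and 3.96 RPKM in M2, M3 and M4 and at 3.27, 34.6 and 4.00 RPKM in D3, D4 and D5. Ifi205 was at 5.80, 27.7 and 7.89 RPKM and at 1.87, 27.0 and 3.36 RPKM in the same order. Ifit2 and Ifi205 were shown because they had the lowest and highest of the 39 values at 2 h. Differences within pairs in this order were not tested, since the pairs were seen in the data.

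Other members illustrate the overlap at those times, whereas the groups of Ifi207 did not overlap at 1 h. Ifih1 at 1 h was at 3.48, 6.40 and 1.79 RPKM with MPH and 5.08, 7.95, 2.33 and 6.34 RPKM with DMSO (-0.47, SE 0.48). Tor3a, an ATPase gene of the endoplasmic reticulum, was at 2.26, 9.92 and 8.10 RPKM with MPH at 2 h and 3.78, 20.1, 9.72 and 15.2 RPKM with DMSO (-0.80, SE 0.72). Ifit2 at 2 h was at 1.72, 16.1 and 3.96 RPKM with MPH and 3.27, 34.6, 4.00 and 19.7 RPKM with DMSO. In each of these the groups overlapped, with M3 and D4 the highest of their groups. In the early class 7 of 7 values at 1 h were below 0 (median -0.42), and without the 1 h library labelled M4 that of Gbp5 turned from -0.45 to 0.03. The other lists gave no calls either: of 27 signalling genes and 31 further interferon-stimulated genes, limma called 0 at each time. At 2 h 7 and 1 of them had an unadjusted p under 0.05, where 930 of 10239 tested genes did.

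**Figure D5:**
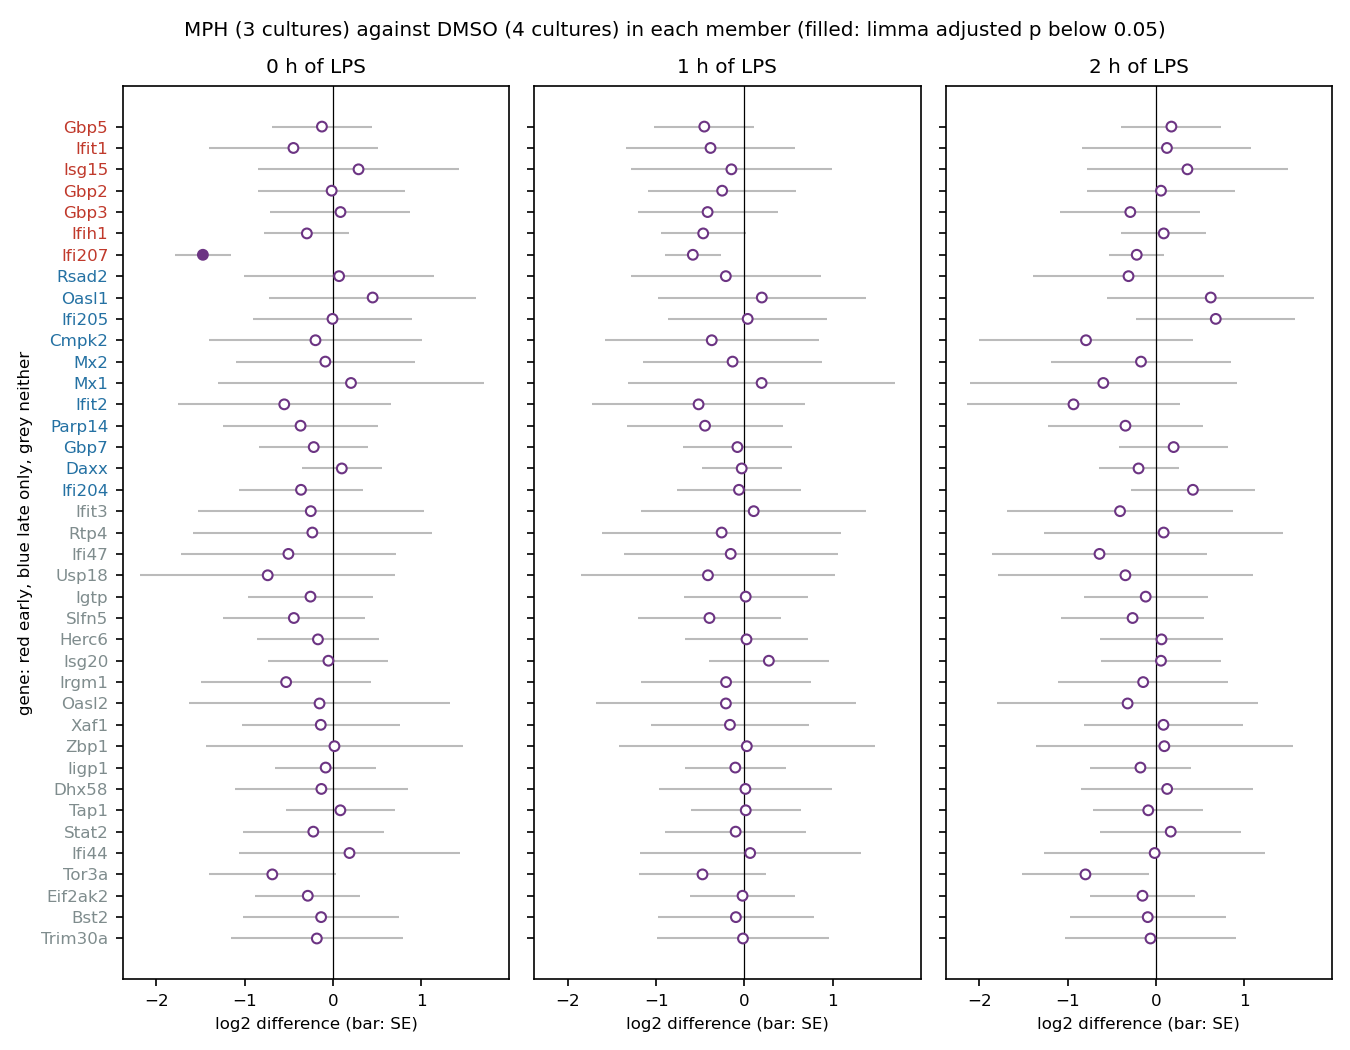
Log2 difference between 3 MPH and 4 DMSO cultures for each gene at 0, 1 and 2 h of LPS, with the SE of the fit as bars and a filled point where the limma adjusted p was below 0.05. Ifi207 at 0 h (-1.47) was the single filled point, and for most other genes the bar crossed 0.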

How the data were processed

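Per the labels' protocols, total RNA was made into TruSeq libraries. Per the submitters' processing notes, which give no versions, FastQC, cutadapt, HISAT2 and SAMtools were used with build mm9. How reads were counted (program, annotation, strand, reads with several positions) is not given in the sources used here. Deposited by the authors were RPKM values for 44401 RefSeq transcript lines, and 0 value columns were without a sample. Steps between low RPKM values gave the approximate depth.

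The scale was log2(RPKM + 0.5), one that understates changes of low genes. The filter kept genes that reached 1 RPKM in 3 or more of the fitted libraries. Tests were those of limma-trend (version 3.58.1, in R 4.3.3), at a Benjamini-Hochberg adjusted p of 0.05 over all genes; all 39 members passed the filter. A fit of the 21 DMSO libraries with the kind of culture name (r, UKD or D) as covariate gave the LPS response under DMSO, and a fit of 21 libraries, those of MPH and of D3 to D6, the rest. The DMSO libraries of D3 to D6 are in both, and the comparisons of 1 h and of 2 h share the 0 h libraries. Each ± or SE is over libraries. The tests were tested on simulated data with independent noise in each library. That cannot show how they behave where the libraries of a culture deviate together, as they do here.

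Culture names pair the libraries across times: deviations from the group means correlated at 0.628 to 0.914 within each of 10 cultures. Counts with the culture as a block are therefore given as well, with values for some genes. The members and the other lists were chosen with earlier results of these data known. Any member may be named; values in full are given for up to 10 genes of a class with the smallest p, for the 5 smallest p of a comparison with MPH, and up to 4 genes per direction of the other lists. Irf7, Xist and Ddx3y were named after their values were seen. Tmem173 and Mb21d1, on the signalling list of 30, were not matched, and 1 gene of that list is not reported here. Alternatives were pseudocounts of 0.1 and 1, no filter, median-of-ratios scaling, the mean of all lines of a gene, the culture block, no covariate, D3 to D6 alone, all 7 DMSO cultures and each culture left out in turn. The design text also names a later LPS time, not analysed here.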

Additional observations from a re-analysis of the deposited data

Results flagged for a closer look

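In 5 of 117 groups of 7 DMSO cultures checked, 1 culture lay far from the other 6 on the log2 scale by Dixon's test, where chance alone gives about 1 in 20 groups. All 5 were D4. Before LPS it was at 1.39 RPKM for Ifi205, 6.14 RPKM for Ifi44, a gene of an interferon-induced GTP-binding family, and 1.26 RPKM for Iigp1. At 1 h it was at 1.15 RPKM for Iigp1, and at 2 h at 5.54 RPKM for Ifi44. The medians over all 7 cultures were 0.0642 RPKM for Ifi205, 0.0544 RPKM for Ifi44 and 0.0530 RPKM for Iigp1 before LPS, 0.0611 RPKM for Iigp1 at 1 h and 0.230 RPKM for Ifi44 at 2 h. These 3 genes were among the lowest of the set, and for Ifi44 and Iigp1 values of other cultures neared that of a few reads. Ifi44 and Iigp1 met the filter of the DMSO fit only through the libraries of D4. Their flags are therefore no support for D4 as an outlier, and the number of flagged groups was near that of chance.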

How the results depend on the processing

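Depth and the number of cultures limit these results: the 1 h libraries of UKD, D4 and D6 had 5.38 to 9.71 M reads, those of M2 at 2 h and M3 at 0 h 14.2 and 16.0 M, and there were 3 MPH cultures. Of 71 member results recomputed with median-of-ratios scaling or the mean of all lines of a gene, 71 kept their direction and side of the threshold, as with a pseudocount of 1. With a pseudocount of 0.1, 69 did, and 1 gene was higher at 2 h than at 1 h with MPH in place of 2. The 71 did not cover all members: Herc6 and Slfn5, which median-of-ratios scaling added at 2 h in DMSO, were not among them. With no filter on low values 3 genes were higher at 1 h in DMSO and 0 were called for MPH at 0 h. Without the name series as covariate 4 were higher at 1 h. In D3 to D6 only, 2, 10 and 2 were higher at 1 h, at 2 h and at 2 h against 1 h.

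With the replicate block by culture, 11, 30 and 31 were higher in DMSO for these 3 comparisons and 19 only at 2 h, and 4, 23 and 21 with MPH; it ended no member's call. Each left-out culture gave from 2 to 9 genes at 1 h, 17 to 23 at 2 h, 13 to 21 at 2 h against 1 h and 13 to 16 only at 2 h in DMSO, and with MPH 1 to 2, 3 to 10 and 0 to 2. The calls for MPH at 0 h were 0 to 1. The median SDs ranged from 0.711 to 1.01 at 0 h, 0.902 to 1.15 at 1 h and 0.777 to 1.09 at 2 h. Without the 1 h library labelled M4, and without D4 and M3 (chosen after the values were seen), 1 gene was higher at 2 h than at 1 h with MPH. The cause was not tested.

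Replicate numbers do not pair MPH with DMSO cultures: deviations of D3 with M3 and D4 with M4 correlated at -0.389 and -0.646 at 0 h, whereas D3 with M2, D4 with M3 and D5 with M4 gave 0.874, 0.908 and 0.900. With a block by number the calls for MPH stayed at 1, 0 and 0. Signs turned in genes that had not passed. With each culture left out, Ifih1, MPH against DMSO at 0 h, ran from -0.84 to 0.116, positive without D4 and, at 0.0488, without M4. Slfn5, MPH against DMSO at 0 h, ran from -1.21 to 0.0291, positive without D4 and, at 0.0136, without M4. Tor3a, MPH against DMSO at 1 h, ran from -0.97 to 0.153 (without M2) and was 0.165 with the block by number. Cmpk2, MPH against DMSO at 2 h, ran from -1.62 to 0.00127 (without M2). Gbp5, MPH against DMSO at 1 h, ran from -0.85 to 0.0283, the latter without M4 or without its 1 h library.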
